A study of Mus musculus with 18 samples.

Results

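The 53 genes described here encode the machinery of mitosis: the mitotic cyclins with *Cdk1*, the spindle assembly checkpoint, the inner and outer kinetochore, the kinetochore corona, the chromosomal passenger complex, mitotic kinases with *Tpx2*, the shugoshins, *Top2a* and *Mki67*, and cytokinesis factors. They were listed by name, for what their proteins do in mitosis, by a rule that uses no measured value, although earlier results of these data were known when the list was made. All 53 were found among the 55153 genes of the RNA-seq table and all 53 passed the filter on low counts in every comparison. RNA-seq and Ribo-seq libraries were made from the cerebral cortex of E15.5 mouse embryos labelled as strain C57BL/6. The 3 genotypes were wild type (Ctrl), a conditional knockout of the m6A methyltransferase gene *Mettl3* (*M*-cKO) and a conditional knockout of the m6A demethylase gene *Fto* (*F*-cKO), with 3 libraries per genotype in each assay and 18 in all. Per the study's methods, the floxed lines were on a background of C57/BL6 mixed with another strain, and *Emx1-Cre* deleted the alleles. Cre was thus driven by the *Emx1* promoter, which is active in progenitors of the dorsal forebrain and their progeny, so that other cells of the dissected cortex kept the floxed gene. RNA-seq measured transcript abundance. Ribo-seq measured ribosome-protected fragments (footprints), which follow the ribosomes on each transcript, and translational efficiency (TE) is the ratio of footprints to RNA.

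A dividing cell attaches each chromosome to spindle microtubules through the kinetochore, which is built in layers on centromeric chromatin. Cyclin B and Cdk1 drive entry into mitosis, the spindle assembly checkpoint holds back Cdc20 and the anaphase promoting complex until every kinetochore is attached, and the chromosomal passenger complex corrects faulty attachments. Most of these genes are transcribed periodically, with a maximum in G2 and M phase, through promoters known for the CHR element and for CCAAT boxes bound by NF-Y. In the embryonic cortex they are expressed by cycling radial glia in the ventricular zone and by dividing intermediate progenitors. In bulk tissue a change in the number of such cells and a change in RNA per cell cannot be told apart.

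Promoter windows from RefSeq (GRCm38.p6, 250 bases before to 50 bases after the start site) were available for 46 of the 53 genes. Of these, 27 (58.7%) held TTTGAA or TTCGAA, the letters of the CHR element, on either strand, compared with 21.7% of all 27025 genes with a window. CCAAT on either strand was found in 35 (76.1%) compared with 41.1% of all genes, at least 2 copies of it in 22 (47.8%) compared with 13.3%, and both kinds of motif in 23 (50%) compared with 8.61%. The 44 DNA replication genes, a set of cell cycle genes expressed earlier in the cycle, had windows for 36 genes, of which 19.4% held the CHR letters and 63.9% held CCAAT. Both sets thus often held CCAAT, and the CHR letters were found in a larger share of the mitotic genes. The sequences below are the 120 bases before the start site of *Ccnb1*, *Cdk1*, *Cdc20* and *Top2a*, shown because these genes are classic G2 and M phase genes, and of *Cenpt*, shown because its window held neither motif. All 5 genes lie on the minus strand and are written 5′ to 3′, with matches to the CHR letters and to CCAAT in capitals (read on the other strand, CCAAT becomes ATTGG, and the first form of the CHR letters becomes TTCAAA).

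Ccnb1 chr13:100786487-100786606: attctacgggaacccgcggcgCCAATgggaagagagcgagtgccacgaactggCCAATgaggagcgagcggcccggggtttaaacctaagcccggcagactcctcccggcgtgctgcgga
Cdk1 chr10:69352913-69353032: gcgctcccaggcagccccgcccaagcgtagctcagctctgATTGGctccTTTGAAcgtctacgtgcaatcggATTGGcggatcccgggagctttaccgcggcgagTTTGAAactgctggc
Cdc20 chr4:118437344-118437463: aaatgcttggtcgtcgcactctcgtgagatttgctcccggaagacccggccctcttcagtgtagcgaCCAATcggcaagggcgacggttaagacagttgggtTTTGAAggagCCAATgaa
Top2a chr11:99024190-99024309: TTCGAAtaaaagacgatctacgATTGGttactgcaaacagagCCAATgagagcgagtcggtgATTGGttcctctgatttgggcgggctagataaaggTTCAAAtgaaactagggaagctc
Cenpt chr8:105852009-105852128: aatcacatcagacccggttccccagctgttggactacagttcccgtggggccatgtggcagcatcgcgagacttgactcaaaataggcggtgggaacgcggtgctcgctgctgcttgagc

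A match is a description of the letters and not a measured binding site. *Ccnb1* has 2 CCAAT matches in this stretch and no CHR letters, *Cdk1* and *Cdc20* have both kinds, and *Top2a* has a dense array of both. Over all windows of the mitotic genes, 72 of 82 CCAAT matches (87.8%) lay before the start site, which is close to the 83.3% of each window that lies there. The densest 25-base bin, from 75 to 50 bases before the start, held 18. Of the CHR letters 23 of 40 matches (57.5%) lay before the start, or 2.3 per 25-base bin compared with 8.5 per bin after it. Genes with more than 1 annotated start have windows that overlap, so 6 of the CCAAT matches and 4 of the CHR matches were counted again at the same genome position.

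**Figure D1:**
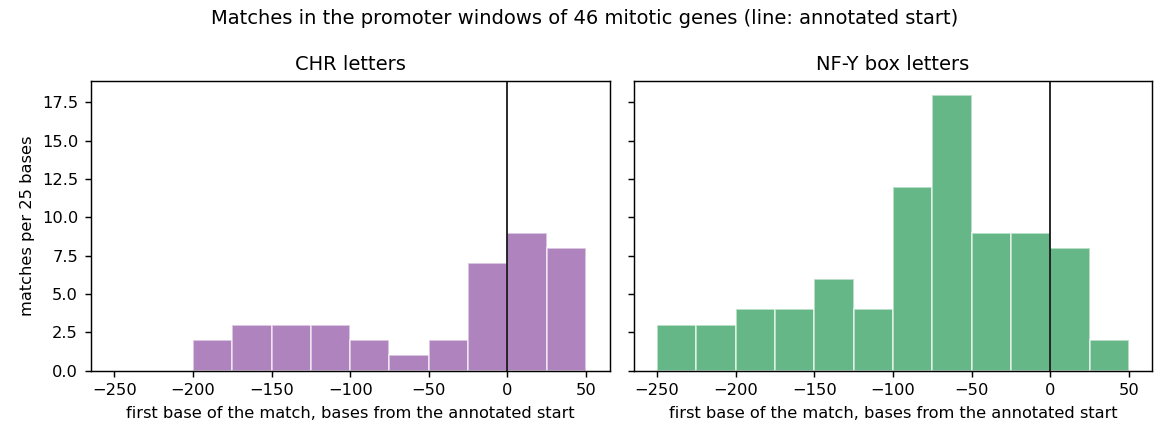
Number of motif matches in the promoter windows of the mitotic genes (left panel, TTTGAA or TTCGAA, right panel, CCAAT, both strands), in bins of 25 bases by distance from the start site in bases. The highest CCAAT bin holds 18 matches, from 75 to 50 bases before the start, and the window covers 250 bases before the start and 50 after it.

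Library totals were between 18504094 and 22592406 counts in RNA-seq and between 10973699 and 35853227 in Ribo-seq. Whole-gene counts of the targeted genes were examined as a check on the labels. *Fto* RNA was 143, 146 and 111 CPM (counts over the library size scaled by TMM) in the Ctrl libraries and 42.5, 99.2 and 31.8 in *F*-cKO (log2 fold change −1.21 ± 0.33, adjusted *P* = 0.0298, edgeR quasi-likelihood test), and its footprints were 40.4, 25.6 and 43.1 in *F*-cKO compared with 276, 234 and 188 in Ctrl. *Fto* was thus below Ctrl in every *F*-cKO library, but *F*-cKO replicate 2 of RNA-seq lay just below Ctrl replicate 3 and far above the other *F*-cKO libraries. *Mettl3* footprints were 28.3, 26.6 and 26.8 CPM in *M*-cKO and 38.1, 38.3 and 41.5 in Ctrl (log2 fold change −0.55 ± 0.09, adjusted *P* = 0.0157, edgeR). *Mettl3* RNA was 44.2, 40.2 and 42.5 CPM in *M*-cKO and 30.0, 32.8 and 26.1 in Ctrl, higher in the RNA-seq libraries labelled *M*-cKO (log2 fold change 0.50 ± 0.09, adjusted *P* = 0.00221, edgeR). Counts over the whole gene include exons that Cre leaves in place, so the *Mettl3* RNA total does not check the deletion. The study examined the deleted exons by RT-PCR, which is not analysed here, and *M*-cKO stands for the library label throughout. *F*-cKO replicate 2 of Ribo-seq had the fewest counts and stood apart from the others, with a median log2 ratio to Ctrl of 3.72 for endothelial, 1.48 for meningeal and 1.24 for microglial markers. The RefSeq models of 15 of the 53 genes overlap another coding gene, among them *Ccna2* with *Exosc9*, *Cdc20* with *Elovl1*, *Aurka* with *Cstf1*, *Mis12* with *Derl2*, *Nsl1* with *Tatdn3* and *Prc1* with *Rccd1*. The use of strand in counting is not given in the sources used here, so reads of such pairs may be assigned to either gene.

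Compared to Ctrl, RNA of 40 of the 53 mitotic genes (75.5%) was higher in *F*-cKO cortices and none was lower, at an adjusted *P* below 0.05 (edgeR quasi-likelihood test, Benjamini-Hochberg adjustment over all genes). Of all 16944 genes tested, 11.5% were called higher and 9.57% lower. The median log2 fold change was 0.60 over the mitotic genes and −0.01 over all genes. In *M*-cKO cortices 28 of 53 (52.8%) were higher and none was lower, with 15.5% of 16968 genes called higher and 14.1% lower, and the median was 0.39 compared with −0.01 over all genes. Both comparisons use the same 3 Ctrl libraries, so they are not independent of each other. At an unadjusted *P* below 0.05 47 of the genes were higher in *F*-cKO (18.2% of all genes) and 32 were higher in *M*-cKO (20.6%), and again none was lower (17.5% and 19.9% of all genes). All 3 *F*-cKO libraries lay above all Ctrl libraries for 46 of the 53 genes, which held for 20.7% of all genes (20.3% lay below), and all 3 *M*-cKO libraries did so for 35, compared with 22.9% of all genes. The remaining genes overlapped with Ctrl, except *Cenpt* in *M*-cKO, whose 3 libraries lay below the Ctrl libraries (21.3% of all genes lay below).

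The 53 genes together took up 0.182, 0.181 and 0.145% of the RNA-seq counts of the Ctrl libraries, 0.242, 0.240 and 0.282% in *F*-cKO and 0.226, 0.228 and 0.223% in *M*-cKO. Every knockout library was above every Ctrl library. The median log2 ratio of the 53 genes to the Ctrl mean was 0.12, 0.12 and −0.25 in the Ctrl libraries, so Ctrl replicate 3 was the lowest of the 3. Without Ctrl replicate 3, 28 genes were called higher in *F*-cKO, with a median of 0.47, while 23 were called higher in *M*-cKO, with a median of 0.28, and none was lower. The share of all genes called without this library is not given here.

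**Figure D2:**
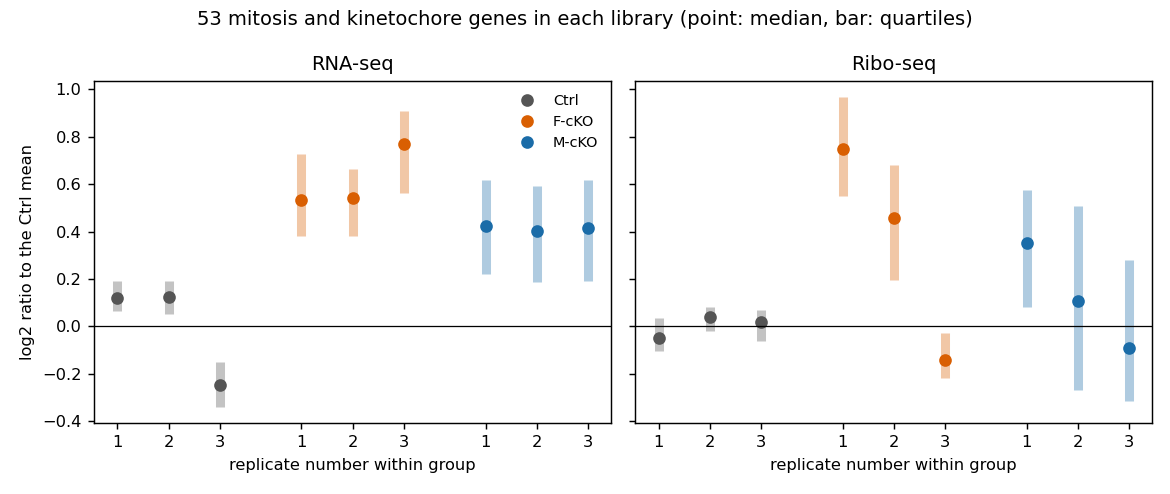
Log2 ratio of the 53 mitotic genes to the Ctrl mean in each library of RNA-seq and Ribo-seq, with points at the median over the genes and bars over their quartiles. In RNA-seq the medians of the knockout libraries, 0.40 to 0.77, all lie above those of the Ctrl libraries, and in Ribo-seq the medians of both knockouts overlap with Ctrl.

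Among the mitotic cyclins and *Cdk1*, all 4 genes were higher in *F*-cKO and 2 of 4 in *M*-cKO. *Ccnb1*, encoding cyclin B1, had RNA levels of 53.1, 51.1 and 36.2 CPM in the 3 Ctrl libraries, 76.6, 74.2 and 88.7 in *F*-cKO and 66.1, 63.0 and 71.5 in *M*-cKO. All 6 knockout libraries were above all Ctrl libraries (log2 fold change 0.77 ± 0.13, adjusted *P* = 0.0058 in *F*-cKO and log2 fold change 0.50 ± 0.12, adjusted *P* = 0.00969 in *M*-cKO, ± SE, edgeR). *Cdk1*, the kinase that cyclin B1 activates, was at 39.9, 41.1 and 28.8 CPM in Ctrl, 52.2, 48.5 and 61.6 in *F*-cKO and 47.0, 46.1 and 54.6 in *M*-cKO, and was called higher in both comparisons (0.56 ± 0.14 and 0.42 ± 0.13). *Ccna2*, encoding cyclin A2, and *Ccnb2*, encoding cyclin B2, were called higher in *F*-cKO (0.78 ± 0.12 and 0.66 ± 0.12) but not in *M*-cKO (0.28 ± 0.10 and 0.22 ± 0.12, adjusted *P* = 0.0653 and 0.188, edgeR).

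Of the 6 spindle assembly checkpoint genes, 5 were higher in *F*-cKO and 4 in *M*-cKO. *Bub1b*, encoding the checkpoint protein BubR1, was at 45.5, 42.3 and 31.3 CPM in Ctrl, 68.0, 66.3 and 74.3 in *F*-cKO and 60.2, 58.4 and 70.4 in *M*-cKO (0.81 ± 0.12 and 0.66 ± 0.12 on the log2 scale). *Bub1*, a kinase of the same pathway, was at 19.2, 17.8 and 14.0 CPM in Ctrl, 31.3, 30.6 and 35.8 in *F*-cKO and 24.3, 24.6 and 23.4 in *M*-cKO. For both genes the Ctrl libraries did not overlap with either knockout. *Cdc20*, the activator of the anaphase promoting complex that the checkpoint inhibits, was at 48.5, 46.2 and 33.6 CPM in Ctrl, 72.8, 73.0 and 73.1 in *F*-cKO and 56.3, 56.2 and 72.2 in *M*-cKO. *Mad2l1*, which binds Cdc20 at unattached kinetochores, was also higher in both (0.43 ± 0.12 in *F*-cKO, 0.37 ± 0.11 in *M*-cKO). *Ttk*, the kinase Mps1 that starts checkpoint signalling, was called in *F*-cKO alone (0.79 ± 0.16, compared with 0.23 ± 0.16 in *M*-cKO). *Bub3*, the checkpoint adaptor, was called in neither comparison. Its levels were 104, 105 and 85.8 CPM in Ctrl, 115, 115 and 123 in *F*-cKO and 96.6, 97.7 and 107 in *M*-cKO, and the *M*-cKO libraries overlapped with Ctrl.

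The inner kinetochore, which contains the centromeric histone Cenpa and the proteins assembled on it, had the smallest median changes of the roles with more than 4 genes. Of its 14 genes, 7 were higher in *F*-cKO, where the median was 0.39, and 2 were higher in *M*-cKO, where it was 0.16. The *M*-cKO count, 14.3% of the 14, is no larger than the 15.5% of all genes called higher. *Cenpa* was at 41.1, 42.7 and 29.6 CPM in Ctrl, 50.1, 57.5 and 60.9 in *F*-cKO and 55.4, 53.4 and 53.4 in *M*-cKO, and was called higher in both (0.57 ± 0.13 and 0.51 ± 0.12). *Cenpl*, which binds the centromeric nucleosome together with Cenpn, was at 10.2, 10.9 and 8.83 CPM in Ctrl, 11.9, 12.3 and 13.6 in *F*-cKO and 17.6, 18.1 and 16.6 in *M*-cKO. It was called in *M*-cKO (log2 fold change 0.79 ± 0.11, adjusted *P* = 0.000526, edgeR), while in *F*-cKO its libraries lay above Ctrl without passing the test (log2 fold change 0.33 ± 0.13, adjusted *P* = 0.0898, edgeR). *Cenpc1*, which links the centromeric nucleosome to the outer kinetochore, was at 48.4, 48.4 and 49.5 CPM in Ctrl, 59.8, 64.2 and 66.0 in *F*-cKO and 50.0, 48.3 and 45.0 in *M*-cKO. It was thus higher in *F*-cKO (0.38 ± 0.06) with the *M*-cKO libraries around the Ctrl values (−0.04 ± 0.07). *Cenpi*, *Cenpk*, *Cenpn*, *Cenpo* and *Cenpu*, of the constitutive centromere-associated network, were called higher in *F*-cKO, with log2 fold changes between 0.45 (*Cenpo*) and 0.75 (*Cenpu*). *Cenph*, *Cenpm*, *Cenpp*, *Cenpq*, *Cenpt* and *Cenpw* passed the test in neither comparison. *Cenpt*, a DNA-binding protein that recruits the Ndc80 complex, had values close to 0 in both comparisons (−0.04 ± 0.07 in *F*-cKO), at 44.3, 43.5 and 42.7 CPM in Ctrl, 44.9, 41.4 and 40.4 in *F*-cKO and 42.5, 42.3 and 42.0 in *M*-cKO. Its *M*-cKO libraries were just below the lowest Ctrl library, a log2 difference of −0.05 ± 0.07. *Cenpp* was measured at low levels, 4.15, 3.79 and 2.33 CPM in Ctrl and 3.17, 2.65 and 3.95 in *M*-cKO.

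The outer kinetochore, which contacts microtubules, comprised 13 genes, of which 9 were higher in *F*-cKO, with a median of 0.56, while 8 were higher in *M*-cKO, with a median of 0.39. *Knl1*, the scaffold that docks the checkpoint proteins, was at 13.8, 14.8 and 11.3 CPM in Ctrl, 22.2, 27.0 and 33.1 in *F*-cKO and 27.6, 28.2 and 18.8 in *M*-cKO, the largest log2 fold change among the 53 genes in either comparison (1.04 ± 0.16 and 0.89 ± 0.16). *Ndc80*, the microtubule-binding subunit, was at 10.4, 12.1 and 8.72 CPM in Ctrl, 17.3, 16.6 and 17.6 in *F*-cKO and 11.5, 11.2 and 10.4 in *M*-cKO. It was called in *F*-cKO (0.72 ± 0.13), and its *M*-cKO libraries lay within the range of Ctrl (0.07 ± 0.14). Its partner *Nuf2* was called in both (0.62 ± 0.12 and 0.46 ± 0.11), *Spc24* in both (0.56 ± 0.15 and 0.79 ± 0.14) and *Spc25* in *F*-cKO (0.64 ± 0.12, compared with 0.15 ± 0.11 in *M*-cKO), so the 4 subunits of the Ndc80 complex differed in their values in *M*-cKO.

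In the Mis12 complex, which joins the inner to the outer kinetochore, *Mis12* was at 38.7, 38.2 and 33.6 CPM in Ctrl, 41.6, 42.8 and 44.3 in *F*-cKO and 61.4, 64.8 and 56.5 in *M*-cKO. Its *M*-cKO libraries were above every library of the other genotypes (log2 fold change 0.71 ± 0.08, adjusted *P* = 0.000121 against Ctrl, edgeR). *Nsl1* was higher in both knockouts, at 9.80, 11.4 and 8.88 CPM in Ctrl, 15.7, 14.7 and 15.5 in *F*-cKO and 16.6, 17.0 and 16.0 in *M*-cKO, and so were *Dsn1* (0.56 ± 0.14 and 0.34 ± 0.11) and *Pmf1* (0.48 ± 0.13 and 0.44 ± 0.13). *Zwint*, which binds Knl1 and is also abundant in neurons, was at 204, 181 and 193 CPM in Ctrl, 216, 195 and 194 in *F*-cKO and 228, 227 and 216 in *M*-cKO, and was called in *M*-cKO alone with a small difference (0.21 ± 0.06). Of the Ska complex, which couples kinetochores to microtubules, *Ska2* was called in *F*-cKO (0.28 ± 0.08), and *Ska1* and *Ska3* passed in neither comparison. Some of these calls rested on single libraries. The *M*-cKO call of *Dsn1* was lost in 5 of 11 alternatives, among them those without Ctrl replicate 1, Ctrl replicate 3, *M*-cKO replicate 1 or *M*-cKO replicate 2, and that of *Zwint* in 4, without Ctrl replicate 2, Ctrl replicate 3, *M*-cKO replicate 1 or *M*-cKO replicate 2. In *F*-cKO the call of *Dsn1* was lost in 3 of 11, among them those without Ctrl replicate 1 or Ctrl replicate 3, and that of *Ska2* in 4, without Ctrl replicate 2, Ctrl replicate 3, *F*-cKO replicate 1 or *F*-cKO replicate 2.

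Both genes of the kinetochore corona were higher in both knockouts. *Cenpe*, a kinetochore motor protein, was at 23.5, 24.7 and 23.2 CPM in Ctrl, 42.1, 39.7 and 57.3 in *F*-cKO and 38.2, 38.5 and 31.8 in *M*-cKO. *Cenpf*, a large corona protein, was at 47.8, 45.1 and 43.6 CPM in Ctrl, 75.2, 70.2 and 96.9 in *F*-cKO and 86.5, 74.3 and 70.1 in *M*-cKO, the smallest adjusted *P* of the 53 genes in *M*-cKO (log2 fold change 0.75 ± 0.08, adjusted *P* = 0.000104, edgeR). The Ctrl libraries of both genes were close to each other and separate from all knockout libraries. In the chromosomal passenger complex, all 4 genes were higher in *F*-cKO and 2 in *M*-cKO. *Aurkb*, its kinase, was at 29.5, 27.9 and 17.99 CPM in Ctrl, 32.8, 38.5 and 40.6 in *F*-cKO and 43.3, 42.6 and 45.7 in *M*-cKO. *Birc5*, encoding survivin, was at 20.7, 20.5 and 15.9 CPM in Ctrl, 27.1, 24.7 and 32.9 in *F*-cKO and 32.5, 32.4 and 32.8 in *M*-cKO. The other subunits, *Incenp* and *Cdca8* (borealin), were called in *F*-cKO (0.62 ± 0.12 and 0.53 ± 0.15) and not in *M*-cKO (0.30 ± 0.11 and 0.16 ± 0.16).

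The mitotic kinases *Aurka* and *Plk1* and the spindle assembly factor *Tpx2*, which activates Aurora A, were each higher in both knockouts. *Plk1* was at 27.9, 30.4 and 19.7 CPM in Ctrl, 41.0, 37.3 and 42.8 in *F*-cKO and 36.9, 38.4 and 45.2 in *M*-cKO (0.63 ± 0.14 and 0.62 ± 0.14). Log2 fold changes were 0.60 ± 0.14 and 0.61 ± 0.13 for *Aurka* and 0.77 ± 0.11 and 0.51 ± 0.11 for *Tpx2*, in *F*-cKO and *M*-cKO respectively. *Sgo1*, encoding the shugoshin that protects centromeric cohesion, was at 11.6, 10.8 and 9.43 CPM in Ctrl, 17.0, 15.7 and 19.8 in *F*-cKO and 19.0, 18.5 and 16.2 in *M*-cKO, and *Sgo2a* was called in *M*-cKO only (0.74 ± 0.17, compared with 0.53 ± 0.21 in *F*-cKO). *Top2a*, the topoisomerase that disentangles sister chromatids, was at 141, 135 and 100.2 CPM in Ctrl, 241, 232 and 269.6 in *F*-cKO and 169, 178 and 172 in *M*-cKO. The 3 genotypes did not overlap, with *M*-cKO between Ctrl and *F*-cKO. *Mki67*, which coats mitotic chromosomes and is a common marker of cycling cells, was at 134, 122 and 116 CPM in Ctrl, 217, 212 and 291 in *F*-cKO and 244, 229.8 and 182 in *M*-cKO (log2 fold change 0.95 ± 0.12, adjusted *P* = 0.00293, and log2 fold change 0.81 ± 0.10, adjusted *P* = 0.000163, edgeR). Of the cytokinesis genes, *Ect2*, which activates RhoA at the division plane, was at 31.6, 23.1 and 19.6 CPM in Ctrl, 44.1, 49.0 and 54.5 in *F*-cKO and 36.1, 34.1 and 36.7 in *M*-cKO. *Anln* (anillin) and *Prc1*, which bundles midzone microtubules, were called in *F*-cKO (0.68 ± 0.16 and 0.72 ± 0.14) and not in *M*-cKO (0.33 ± 0.15 and 0.19 ± 0.11).

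**Figure D3:**
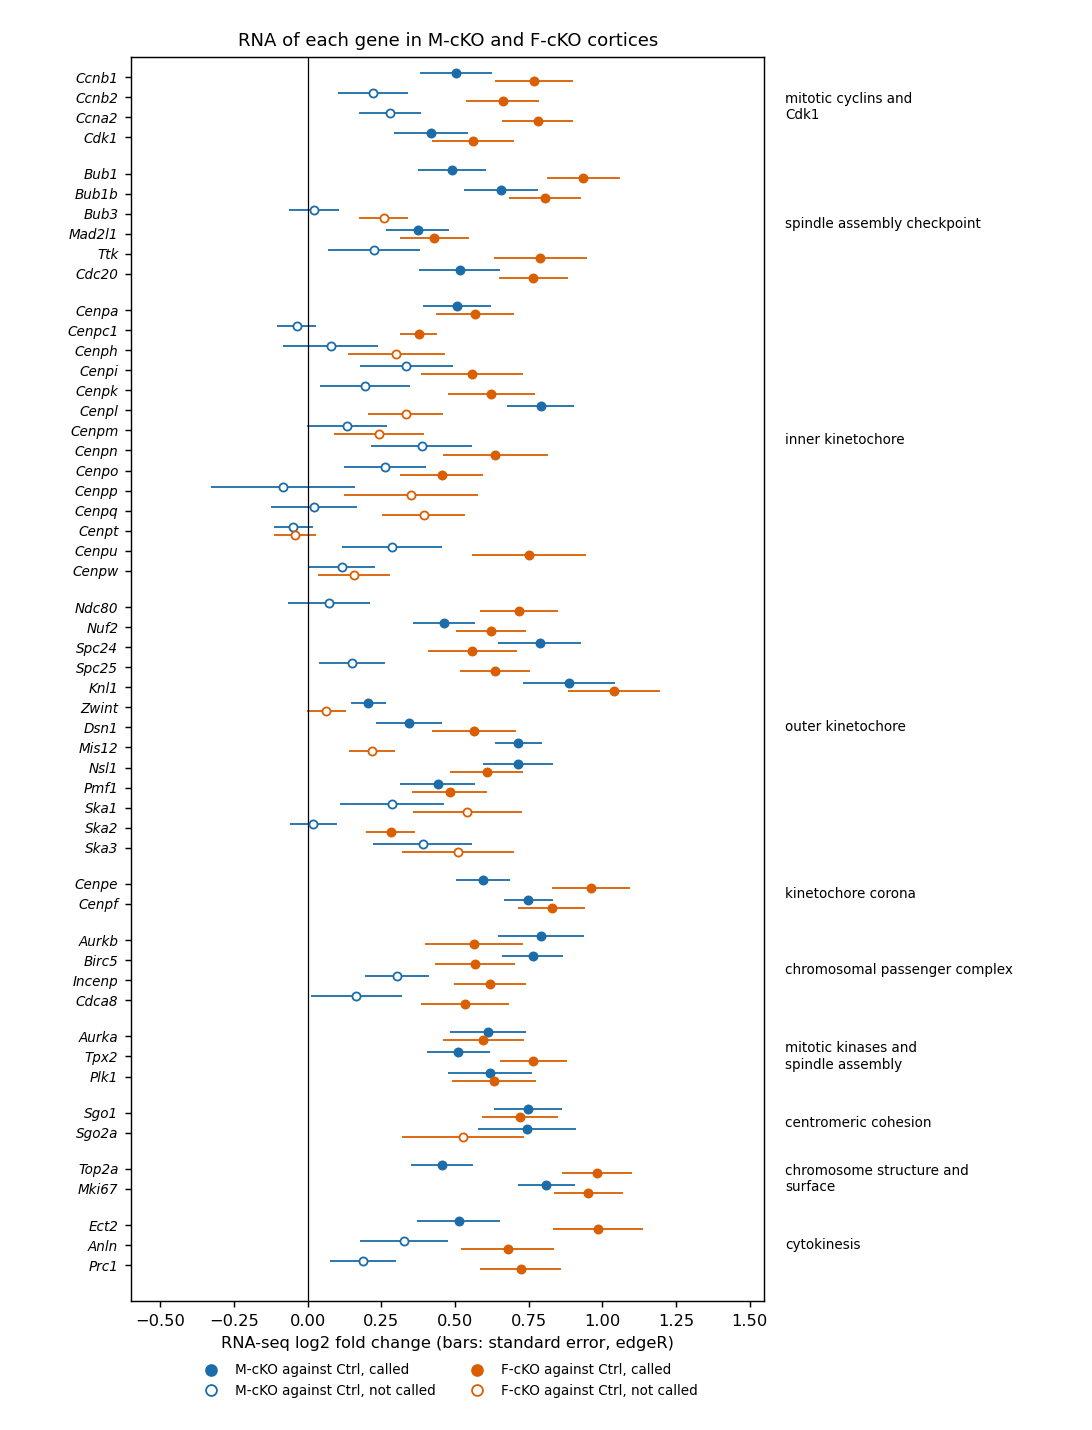
RNA log2 fold change of each of the 53 mitotic genes against Ctrl in *M*-cKO and *F*-cKO, grouped by role, with filled points for genes called at an adjusted *P* below 0.05 and bars for the SE. In *F*-cKO 40 genes and in *M*-cKO 28 genes are called, all of them above 0, and *Cenpt* lies close to 0 in both.

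The knockouts were also compared with each other directly, which does not use the Ctrl libraries. RNA of 18 of the 53 genes (34.0%) was lower in *M*-cKO than in *F*-cKO and RNA of 2 was higher, while 14.3% of all 16802 genes were called lower and 13.1% higher. The median log2 difference was −0.23 (*M*-cKO minus *F*-cKO), and −0.13 without *F*-cKO replicate 3. *Top2a* had the smallest adjusted *P* (log2 fold change −0.54 ± 0.07, adjusted *P* = 0.000783, edgeR), followed by *Mis12*, which was higher in *M*-cKO (log2 fold change 0.49 ± 0.07, adjusted *P* = 0.00125, edgeR). The largest of the negative differences were those of *Ndc80* (−0.66 ± 0.11), *Ttk* (−0.58 ± 0.13), *Prc1* (−0.55 ± 0.12) and *Top2a*. *Ccna2* (−0.51 ± 0.08), *Spc25* (−0.50 ± 0.10), *Ect2* (−0.48 ± 0.09), *Bub1* (−0.46 ± 0.09) and *Ccnb2* (−0.45 ± 0.09) were also lower in *M*-cKO, as were *Ccnb1*, *Bub3*, *Cenpc1*, *Cenpq*, *Ska2*, *Incenp*, *Cdca8*, *Tpx2* and *Anln*. *Cenpl* was the other gene that was higher (0.45 ± 0.11). The chromosomal passenger complex was split, with *Incenp* and *Cdca8* lower and no call for *Aurkb* (0.21 ± 0.09) or *Birc5* (0.18 ± 0.11). All 3 *M*-cKO libraries lay below all *F*-cKO libraries for 24 of the genes and above them for 6, compared with 20.5% and 22.3% of all genes.

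Ribosome footprints of the mitotic genes were less uniform than their RNA. In *M*-cKO, footprints of 11 of the 53 genes (20.8%) were higher and of 2 were lower than in Ctrl, when 7.13% of all 14314 genes tested were called higher and 7.5% lower (edgeR quasi-likelihood test). The median log2 fold change was 0.11, compared with a value close to 0 over all genes, and 31 of the 53 values were above 0. In *F*-cKO no gene of the 53 was called. This comparison called 0% of all 14335 genes in either direction, the smallest adjusted *P* being 0.35, and at an unadjusted *P* below 0.05 2 mitotic genes were higher and 0 were lower, compared with 1.58% and 0.635% of all genes. DESeq2 called 0 mitotic genes higher and 0 lower in *F*-cKO, and its share over all genes is not given here. The median in *F*-cKO was 0.38 (all genes 0.05), with 47 of 53 values above 0.

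The *F*-cKO footprint libraries were far apart from each other. For replicates 1, 2 and 3 of *F*-cKO, the 53 genes had median log2 ratios to the Ctrl mean of 0.75, 0.46 and −0.14. The same medians were 0.35, 0.11 and −0.09 for the *M*-cKO libraries and −0.05, 0.04 and 0.02 for the Ctrl libraries. *F*-cKO replicate 3 thus lay below the Ctrl libraries and *F*-cKO replicate 1 was the highest of the 9. The *F*-cKO median was 0.18 without *F*-cKO replicate 1 and 0.64 without *F*-cKO replicate 3. Without *F*-cKO replicate 2, the library with vascular and meningeal markers, it was 0.38, and no gene was called in any of these cases. The *M*-cKO calls depended on single libraries: 0 genes were called in either direction without Ctrl replicate 1 or without Ctrl replicate 2, 4 higher without Ctrl replicate 3, 6 higher without *M*-cKO replicate 1 and 14 higher without *M*-cKO replicate 3. The 2 lower calls stood only when *M*-cKO replicate 3 was the library left out, and 1 lower call stood without *M*-cKO replicate 1. The number called higher without *M*-cKO replicate 2 is not given here. The share of all genes called in these fits is not given either, so the counts cannot be compared with a background. The direct comparison of footprints in *M*-cKO and *F*-cKO called 0% of 14262 genes and thus no mitotic gene (edgeR), with 0 of them higher and 4 lower at an unadjusted *P* below 0.05 (4.98% and 3.11% of all genes).

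The footprints that were higher in *M*-cKO belonged to several roles. *Mki67* was at 237, 249 and 277 CPM in Ctrl, 504, 451 and 384 in *M*-cKO, with 552, 497 and 229.8 in *F*-cKO, so that all *M*-cKO libraries and 2 of the *F*-cKO libraries were above Ctrl (log2 fold change 0.79 ± 0.12, adjusted *P* = 0.0122 in *M*-cKO, edgeR). *Cenpe* was at 65.9, 69.9 and 69.6 CPM in Ctrl, 120.3, 114 and 93.5 in *M*-cKO, with 139.5, 163 and 64.3 in *F*-cKO. *Cenpf* was at 133, 143 and 142 CPM in Ctrl, 271, 212 and 205 in *M*-cKO, with 294, 240.1 and 128 in *F*-cKO. As for *Mki67*, all *M*-cKO libraries of both corona genes were above Ctrl, and *F*-cKO replicate 3 was below the Ctrl values. *Nsl1* was at 6.69, 6.16 and 6.63 CPM in Ctrl, 14.9, 14.9 and 11.1 in *M*-cKO, with 14.3, 11.6 and 6.75 in *F*-cKO, and it was one of 2 genes, with *Cenph*, whose 3 *F*-cKO libraries all exceeded Ctrl (3.66% of all genes did). *Birc5* (0.60 ± 0.12), *Aurkb* (0.54 ± 0.12), *Plk1* (0.76 ± 0.18), *Sgo1* (0.69 ± 0.19), *Spc24* (0.78 ± 0.16) and *Zwint* (0.53 ± 0.10) were also called higher in *M*-cKO. These 10 genes were the ones called higher in both the RNA and the footprints of *M*-cKO. The 11th was *Cenpu*, at 4.79, 4.70 and 6.63 CPM in Ctrl and 16.4, 13.9 and 9.81 in *M*-cKO, whose RNA was not called (0.28 ± 0.17). Its Ctrl level was low, and its gene model overlaps the coding gene *Primpol*.

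Footprints of *Bub3* and *Cenpp* were called lower in *M*-cKO. *Bub3* was at 208, 194 and 191 CPM in Ctrl and 164, 129.9 and 153 in *M*-cKO (log2 fold change −0.43 ± 0.10, adjusted *P* = 0.0346, edgeR), without overlap. *Cenpp* was at 4.46, 5.54 and 5.29 CPM in Ctrl and 3.09, 2.94 and 3.11 in *M*-cKO (log2 fold change −0.76 ± 0.19, adjusted *P* = 0.0369, edgeR), a low level, in a gene whose model overlaps 5 other coding genes. *Ska2*, at 14.4, 14.6 and 13.5 CPM in Ctrl and 9.27, 11.3 and 10.5 in *M*-cKO, and *Cenpw*, at 8.78, 9.43 and 9.49 and 5.93, 5.53 and 7.40, also lay below Ctrl in all 3 libraries without passing the test (adjusted *P* = 0.0523 and 0.0546, edgeR). In all, 17 genes lay above and 6 below Ctrl in all 3 *M*-cKO libraries, compared with 19.9% and 19% of all genes.

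Of the 28 genes with higher RNA in *M*-cKO, 18 had no footprint call, and 7 of these had a footprint log2 fold change below 0: *Ccnb1*, *Cdk1*, *Mad2l1*, *Cenpl*, *Knl1*, *Top2a* and *Ect2*. For *Top2a* (−0.01) and *Knl1* (−0.02) the fitted value was close to 0 and its sign came from the fit, as the mean CPM was slightly above that of Ctrl (501 compared with 497, and 32.1 compared with 31.9). *Ccnb1* footprints were 36.1, 45.1 and 43.3 CPM in Ctrl, 37.5, 29.9 and 27.4 in *M*-cKO, with 55.1, 46.7 and 33.7 in *F*-cKO, so its *M*-cKO libraries overlapped with Ctrl at the lower end (−0.42 ± 0.15) while its RNA was higher (0.50 ± 0.12). *Cdk1* footprints were 222, 212 and 184 CPM in Ctrl, 239.5, 167 and 162 in *M*-cKO, with 310.1, 166 and 181 in *F*-cKO. *Top2a* footprints were 473, 525 and 493 CPM in Ctrl, 643, 439.6 and 419.7 in *M*-cKO, with 830.2, 615 and 426 in *F*-cKO. For each of these genes replicate 1 was the highest *M*-cKO library and the others lay below the Ctrl mean. All 4 cyclin and *Cdk1* genes had footprint values below 0 in *M*-cKO (median −0.28) and none was called.

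**Figure D4:**
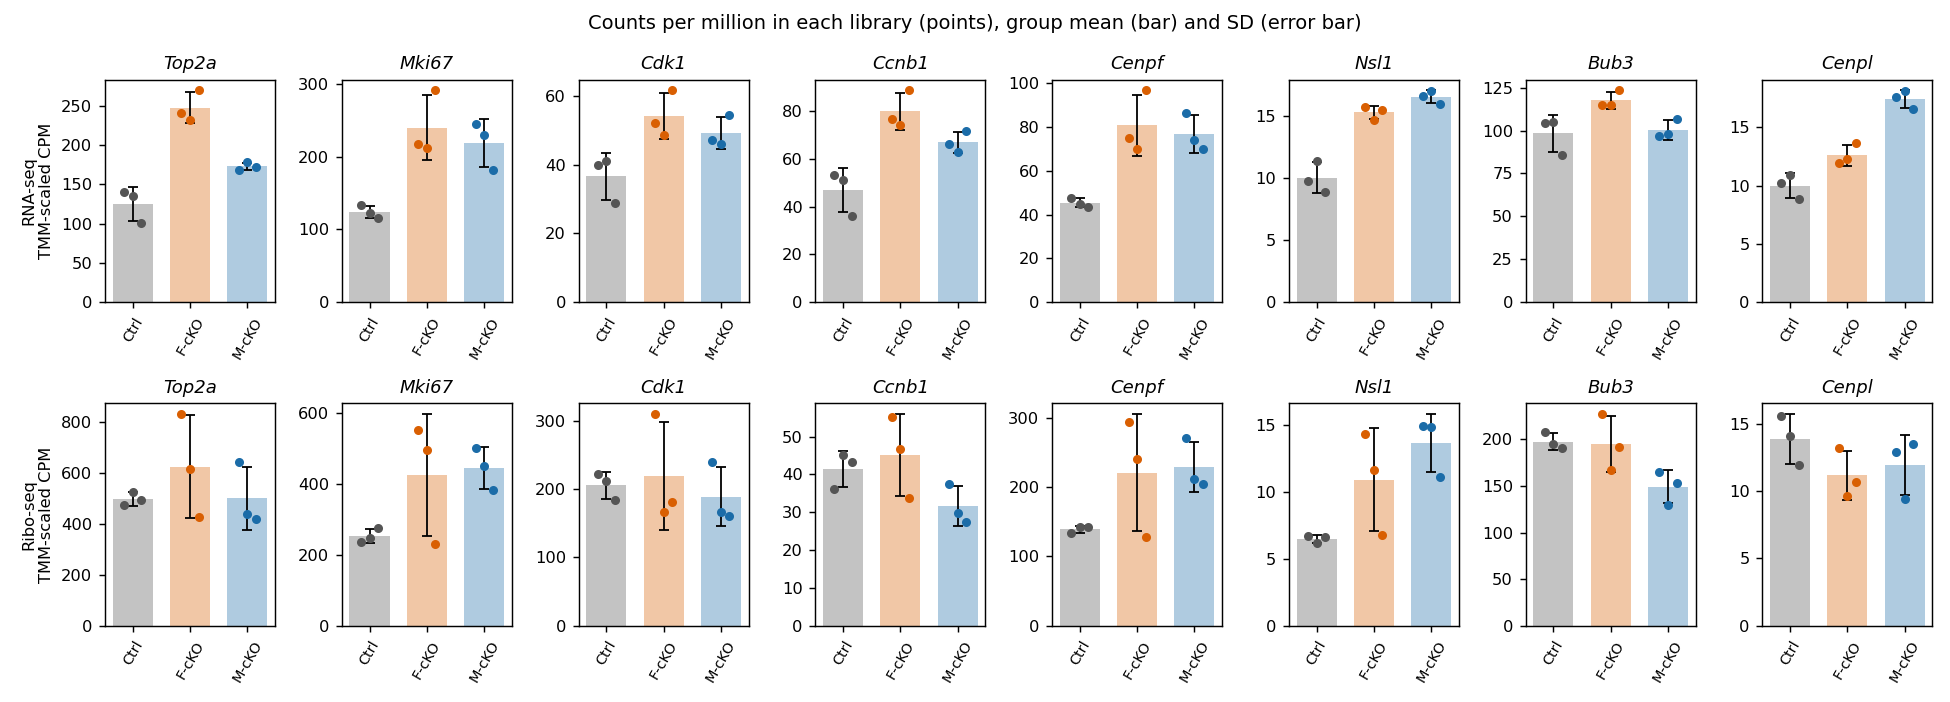
RNA (upper row) and footprints (lower row) of 8 mitotic genes in TMM-scaled CPM, with 1 point per library, bars for the group mean and error bars for the SD (n = 3). *Mki67*, *Cenpf* and *Nsl1* are above Ctrl in *M*-cKO in both assays, *Top2a*, *Cdk1* and *Ccnb1* have *M*-cKO libraries that are all above Ctrl in RNA and overlap with Ctrl in footprints, and *Bub3* footprints are below Ctrl in *M*-cKO.

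Over the 53 genes, the RNA and footprint log2 fold changes against Ctrl had a Pearson correlation of 0.58 in *M*-cKO and 0.59 in *F*-cKO (Spearman 0.60 and 0.57). These are descriptions across genes that share libraries, and the correlation over all genes was 0.49 in *M*-cKO and 0.19 in *F*-cKO. The footprint change was below the RNA change for 45 of 53 genes (84.9%) in *M*-cKO, with a median difference of −0.29, compared with 56.0% of 13208 genes and −0.05. In *F*-cKO it was below for 42 of 53 (79.2%), with a median difference of −0.21, compared with 47.5% of 13225 genes and 0.03. RNA folds of the mitotic genes thus exceeded the footprint folds more often than over all genes. Tested gene by gene as the interaction of assay and genotype, TE was called lower in *M*-cKO for 1 mitotic gene, *Cenpl*, and higher for none, when 0.824% of 14328 genes were called lower and 1.24% higher (edgeR quasi-likelihood test). The median log2 change of TE was −0.23 over the 53 genes and 0.02 over all genes. Without RNA-seq Ctrl replicate 3, in which the 53 genes were lowest, that median was −0.07 and *Cenpl* was not called. The median was −0.11 without Ribo-seq *M*-cKO replicate 3 and −0.35 without Ribo-seq *M*-cKO replicate 1.

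**Figure D5:**
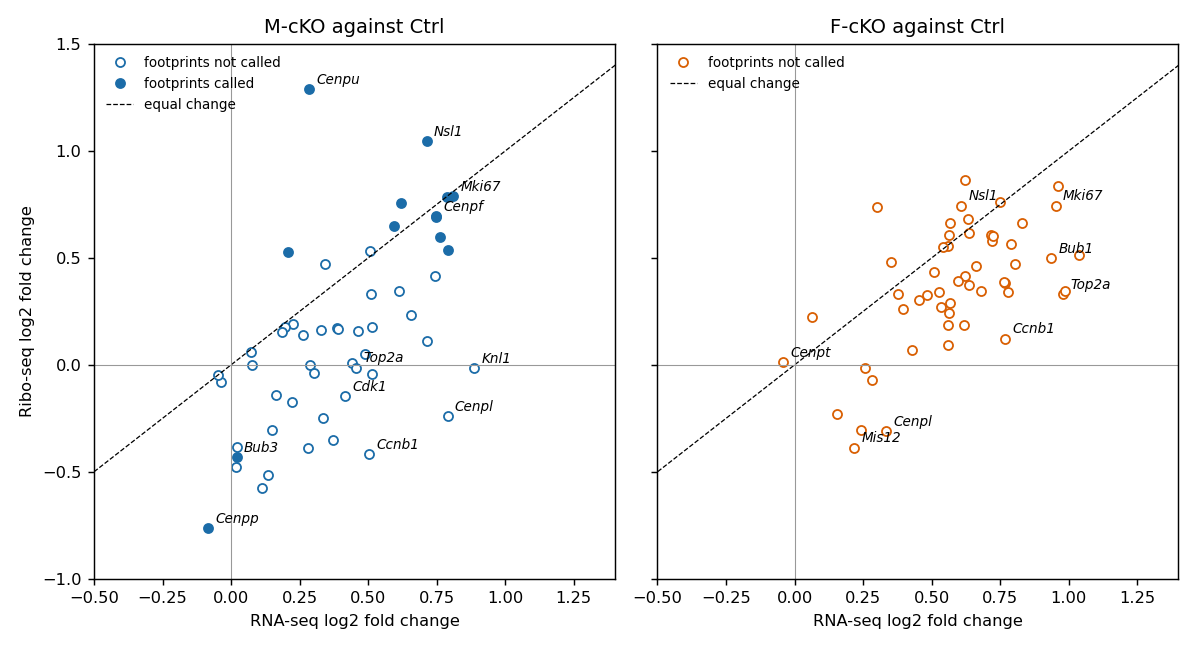
Footprint log2 fold change against RNA log2 fold change of the 53 mitotic genes, for *M*-cKO and *F*-cKO against Ctrl, with the line of equal change and filled points for called footprints. In *M*-cKO 45 genes and in *F*-cKO 42 genes lie below the line.

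*Cenpl* footprints were 15.6, 14.1 and 11.9 CPM in Ctrl, 12.9, 9.40 and 13.5 in *M*-cKO, with 13.2, 9.61 and 10.7 in *F*-cKO, overlapping in *M*-cKO, while its RNA was higher in every *M*-cKO library (−0.97 ± 0.21 for TE, adjusted *P* = 0.0421, edgeR). The next genes below 0 by adjusted *P* were *Ccnb1* (−0.86 ± 0.22, adjusted *P* = 0.0632), *Cenpw* (−0.63 ± 0.18, 0.0944) and *Knl1* (−0.85 ± 0.26, 0.106), none of which passed the test in edgeR. *Knl1* footprints were 29.4, 31.7 and 34.6 CPM in Ctrl and 41.0, 27.6 and 27.6 in *M*-cKO, so they overlapped while RNA did not. *Cenpw* RNA was 11.6, 10.3 and 11.5 CPM in Ctrl and 12.5, 12.6 and 11.2 in *M*-cKO, with overlap, while its footprints lay below Ctrl. On the other side, the first by adjusted *P* were *Cenpu* (1.06 ± 0.29), *Zwint* (0.38 ± 0.12), *Nsl1* (0.39 ± 0.20) and *Dsn1* (0.19 ± 0.21), also not called. *Cenpu* RNA was 3.84, 3.50 and 4.23 CPM in Ctrl and 5.13, 4.76 and 4.27 in *M*-cKO, just above Ctrl in every library. *Zwint* footprints were 255, 217 and 271 CPM in Ctrl and 358, 356 and 373 in *M*-cKO, with 379, 190.4 and 298 in *F*-cKO, so those of *M*-cKO were separate from Ctrl. *Dsn1*, of the Mis12 complex, had RNA levels of 13.0, 13.3 and 11.3 CPM in Ctrl and 15.7, 17.4 and 15.04 in *M*-cKO, and footprints of 10.5, 10.7 and 11.2 CPM in Ctrl and 18.4, 15.6 and 11.8 in *M*-cKO, without overlap in either assay. The 4 cyclin and *Cdk1* genes had the lowest median TE change of any role (−0.56), with no call.

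In *F*-cKO, TE was called for 0% of all genes (edgeR, lowest adjusted *P* 0.407). At an unadjusted *P* below 0.05 it was higher for 0 and lower for 6 mitotic genes, compared with 2.86% and 5.83% of all genes. DESeq2 called 0 mitotic genes higher and 0 lower there, again without a share over all genes to set beside it. The median of the 53 genes was −0.25, and a single library moved it, to −0.05 without Ribo-seq *F*-cKO replicate 3, −0.49 without Ribo-seq *F*-cKO replicate 1 and −0.15 without RNA-seq Ctrl replicate 3. The lowest by adjusted *P* were *Mis12* (−0.64 ± 0.17), *Cenpl* (−0.69 ± 0.22), *Ccnb1* (−0.69 ± 0.27) and *Top2a* (−0.70 ± 0.28), and the first among those above 0 were *Cenph* (0.39 ± 0.30) and *Cenpk* (0.19 ± 0.39), followed by *Zwint* (0.12 ± 0.27) and *Nsl1* (0.09 ± 0.32). *Cenph* RNA was 11.1, 9.23 and 6.99 CPM in Ctrl and 11.2, 10.9 and 11.7 in *F*-cKO, with overlap, and its footprints were 13.1, 10.99 and 11.9 CPM in Ctrl and 25.6, 20.2 and 14.4 in *F*-cKO, above Ctrl in every library. *Cenpk*, at low levels, had RNA of 5.87, 6.06 and 5.25 CPM in Ctrl and 8.50, 8.12 and 9.89 in *F*-cKO, without overlap, and footprints of 5.20, 6.94 and 7.91 CPM in Ctrl and 16.3, 13.3 and 6.93 in *F*-cKO, where replicate 3 overlapped with Ctrl. *Mis12* footprints, at 31.6, 32.5 and 27.2 CPM in Ctrl and 25.4, 19.5 and 24.9 in *F*-cKO, were the only ones of the 53 that lay below Ctrl in all 3 *F*-cKO libraries (4.22% of all genes did). The direct test of TE between *M*-cKO and *F*-cKO called 0 mitotic genes and 0% of all genes (edgeR), and at an unadjusted *P* below 0.05 it gave 1 higher and 0 lower, compared with 2.21% and 1.59% of all genes.

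Levels between genes were compared per length, in the authors' FPKM for RNA and RPKM for footprints. In Ctrl the median RNA level of the 53 genes was 4.56 FPKM. *Zwint* was the highest (43.1 ± 2.34, SD, n = 3), followed by *Cdc20* (22.7 ± 4.33) and *Ska2* (17.8 ± 1.93), and *Sgo2a* was the lowest (0.792). The Ctrl libraries of *Cdc20*, 17.7 to 25.7 FPKM, overlapped with those of *Ska2*, 15.7 to 19.5, and *Zwint* lay above both. Footprint levels ranged from 0.976 to 68.1 RPKM with a median of 8.22, and *Zwint* (68.1 ± 7.33) and *Top2a* (67.3 ± 3.68) differed by less than their SDs at the top, above *Cdk1* (50.9 ± 5.04). The ratio of mean RPKM to mean FPKM had a median of 1.68 over the mitotic genes in Ctrl, compared with 0.757 over the 12952 genes with at least 1 FPKM, and 2 of the 53 genes were below that median of all genes. *Cdk1* had the highest ratio in each genotype, at 6.93 in Ctrl, 4.63 in *M*-cKO and 4.89 in *F*-cKO, and the lowest was that of *Cenpa* in Ctrl (0.245) and of *Ska2* in *F*-cKO (0.226) and *M*-cKO (0.206). The median ratio was 1.63 for *F*-cKO and 1.36 for *M*-cKO, compared with 0.786 and 0.743 over all genes. FPKM and RPKM come from separate pipelines, so the ratio ranks genes within a genotype, and a ratio of 1 has no meaning of its own.

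Genes of neighbouring pathways were examined in the same fits, in which, as above, RNA of 11.5% of all genes was called higher and 9.57% lower in *F*-cKO, and of 15.5% and 14.1% in *M*-cKO. Of 44 DNA replication genes, RNA of 26 was higher and of 0 lower in *F*-cKO (median 0.39) and 18 were higher and 2 lower in *M*-cKO (median 0.24), with *Mcm5*, a subunit of the replicative helicase, at 0.72 ± 0.09 and 0.74 ± 0.10. Their footprints in *M*-cKO gave 3 higher and 1 lower (median −0.05), shares of 6.82% and 2.27% that do not exceed those of all genes (7.13% and 7.5%). Of 24 further mitotic regulators, 16 were higher in *F*-cKO and 14 in *M*-cKO with none lower, among them *Foxm1* (0.71 ± 0.11 in *M*-cKO) and *Mybl2* (1.01 ± 0.14), transcription factors of G2 and M phase genes, whose footprints were also higher in *M*-cKO (1.03 ± 0.16 and 0.86 ± 0.18). Of 8 condensin genes, which compact mitotic chromosomes, 7 were higher in *F*-cKO (median 0.60, *Ncapg* 1.10 ± 0.17) and 4 in *M*-cKO (median 0.23), and no footprint call was made in *M*-cKO. Of 15 cohesin genes, 11 were higher in *F*-cKO and 0 lower, and 3 higher and 1 lower in *M*-cKO, where *Cdca5* (sororin) had the largest value (1.43 ± 0.15 in RNA, 0.97 ± 0.18 in footprints). Of the anaphase promoting complex with its regulators, in RNA, 5 of 18 members had a higher and 1 a lower level in *F*-cKO, compared with 6 and 2 in *M*-cKO. In the *M*-cKO footprints 1 was higher and 4 were lower, *Cdc27* (−0.64 ± 0.11), *Anapc15* (−0.78 ± 0.18), *Anapc5* (−0.48 ± 0.11) and *Anapc1* (−0.47 ± 0.11), with a median of −0.25. Of 14 other kinetochore and centromere genes, 3 (21.4%) were higher in each knockout, *Kntc1* and *Spdl1*, which recruit dynein to the kinetochore, in both.

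Markers of the cell types in the tissue were measured in the same libraries, and none of the markers with values was at 0 in any library (1 of 8 erythroid markers had no Ribo-seq values in use). Markers of radial glia, of intermediate progenitors and of postmitotic neurons were present, as labelled for the cortex. Of the 6 markers of intermediate progenitors, a dividing population, RNA of 5 was higher in *F*-cKO (median 0.69) and of 3 in *M*-cKO (median 0.51), and none was lower. Their summed level was 438 to 677 CPM in Ctrl, with replicate 3 the lowest, 751 to 821 in *M*-cKO, and 775 to 942 in *F*-cKO. In the footprints no marker of this list was called, and the summed level was 247 to 333 CPM in Ctrl, 253 to 497 in *F*-cKO, with replicate 3 the lowest, and 327 to 436 in *M*-cKO. Relative to the average of Ctrl, the log2 median of this list was 0.17, 0.27 and −0.40 in the RNA-seq Ctrl libraries, lowest in replicate 3 as for the mitotic genes, and 0.75, 0.43 and −0.31 in the *F*-cKO footprint libraries, which is the order of the mitotic genes there. The orders differed in the Ctrl footprints (0.23, 0.06 and −0.31) and in those of *M*-cKO (0.54, 0.58 and −0.0024). Of the 9 radial glia markers, 5 were higher and 2 lower in *F*-cKO, and 3 higher and 2 lower in *M*-cKO, with a summed level of 1780.5 to 1965.9 CPM in Ctrl, 1493.4 to 1708.0 in *M*-cKO, and 1956.2 to 2043.1 in *F*-cKO. Against Ctrl, *F*-cKO had a median fold change of 0.44 (log2) over these markers and *M*-cKO one of 0.10. Single libraries had medians, relative to the average of Ctrl, of 0.12, 0.10 and −0.24 in Ctrl, 0.40, 0.45 and 0.50 in *F*-cKO and 0.05, −0.04 and 0.30 in *M*-cKO. The median of this list was thus above those of Ctrl in every *F*-cKO library, as for the mitotic genes. Its summed levels in *F*-cKO and Ctrl overlapped.

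All 9 markers of the ganglionic eminence, a neighbouring region with dividing progenitors, had higher RNA in *M*-cKO (median 0.93) and 5 had higher footprints (median 1.19). Their summed RNA level was 464 to 472 CPM in Ctrl, 623 to 827 in *M*-cKO and 433 to 587 in *F*-cKO, in which 3 were higher. Of the 10 neuronal markers, 5 were higher and 3 lower in *M*-cKO, and 4 higher and 2 lower in *F*-cKO. Of the 6 meningeal markers, 3 were lower in *F*-cKO, with summed levels of 23.7 to 74.6 CPM compared with 90.3 to 178 in Ctrl and 50.0 to 251 in *M*-cKO. Endothelial markers gave 0 calls in *M*-cKO and 2 lower in *F*-cKO, microglial markers gave 0 calls, and of 7 erythroid markers tested 1 was higher in *M*-cKO and 1 higher and 1 lower in *F*-cKO. The part of these cell types in the differences of the mitotic genes was not tested.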

How the data were processed

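RNA-seq and Ribo-seq libraries of E15.5 cortex from 3 genotypes (Ctrl, *M*-cKO, *F*-cKO) were used, with groups and replicate numbers taken from the sample labels. The labels call the 3 libraries of a group biological repeats without naming litters, and the study's methods describe the Ribo-seq cortices as "from 1 L", which may mean that they share 1 litter. *P* values therefore measure the spread between these libraries, which in Ribo-seq may be that within a litter. Per the submitters' processing notes the tools were HISAT2 2.0.5, TopHat2, HTSeq and DESeq2 1.14.1 with build mm10. The authors deposited raw read counts per gene for RNA-seq (reads aligned with HISAT2) and for Ribo-seq (RNase I footprints of monosomes from cycloheximide lysates, TopHat2 and HTSeq). FPKM for RNA-seq and RPKM for Ribo-seq were computed by the authors and used as deposited, for levels only. Annotation, strand use and the tool that counted RNA-seq reads are not given in the sources used here. In the Ribo-seq counts 40490 of 54838 genes are blank in 8 of 9 libraries and were not used, which left 14348 genes, all mitotic genes included. A symbol was matched for 54723 of the 55153 genes of the RNA-seq table.

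Tests on counts used edgeR 4.0.16 under R 4.3.3. Each pair of genotypes was fitted over its own 6 libraries (filterByExpr with minimum count 10 and minimum total 15, TMM, quasi-likelihood test), with Benjamini-Hochberg adjustment over all genes and calls at an adjusted *P* below 0.05. Changes of TE were tested in edgeR as an assay by genotype interaction over 12 libraries. The fit took these libraries as independent, with no term linking RNA-seq and Ribo-seq libraries of the same replicate number. The study used RiboDiff, which was not run. CPM values are counts over TMM-scaled library sizes. Comparisons made by the authors were not used. Scripts were tested on simulated data.

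The 53 genes, the pathway lists and the marker lists were chosen with earlier results of these data known, and the lists are described by counts and medians only. All 53 genes may be named. Values in every library were given for lead genes of each role and for the top 4 by adjusted *P*, separately above and below 0, in RNA-seq *M*-cKO, RNA-seq *F*-cKO, Ribo-seq *M*-cKO and both TE comparisons against Ctrl. From each other list up to 4 genes with the smallest adjusted *P* could be named. Promoter windows came from RefSeq (GRCm38.p6). Alternatives were DESeq2 1.42.0, RLE scaling, no filter on low counts, a single fit of all 3 genotypes, the replicate number as a block, protein-coding genes only (Ribo-seq and TE), leaving out every library once and, for TE levels, pseudocounts of 0.1 and 1 or a minimum of 1 FPKM. A single fit without *F*-cKO replicate 2 of Ribo-seq and a filter on each assay separately were added after the data were seen.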

Additional observations from a re-analysis of the deposited data

Results flagged for a closer look

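*Cenpl* stood out because its knockout effect differed between the 2 assays by a test of the difference itself. Its RNA was higher in *M*-cKO (0.79 ± 0.11, log2 fold change ± SE) while its footprints had a value of −0.24 ± 0.18, so the log2 change of TE was −0.97 ± 0.21 (adjusted *P* = 0.0421, interaction of assay and genotype, edgeR). RNA was above Ctrl in 3 of 3 *M*-cKO libraries, and footprints overlapped with Ctrl. Over the alternatives the value lay between −1.09 and −0.84, and the call was lost in 11 of 20, among them the single fit of all 3 genotypes (adjusted *P* = 0.185, edgeR) and the fit without RNA-seq Ctrl replicate 3 (0.115, edgeR). Groups of 3 libraries are too small for a test of single outlying libraries.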

How the results depend on the processing

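RNA counts kept their direction throughout: no mitotic gene was called lower against Ctrl under any alternative, and the genes called higher numbered 23 to 29 (*M*-cKO) and 28 to 40 (*F*-cKO) with a library left out and 27 to 33 and 28 to 45 otherwise. In *M*-cKO against *F*-cKO, 12 to 18 genes were lower and 1 to 5 higher with a library left out (1 without *F*-cKO replicate 2, 5 without *F*-cKO replicate 3). Footprint calls in *M*-cKO depended on the processing. Genes called lower numbered 4 with DESeq2 and 4 with protein-coding genes only, the single fit of all 3 genotypes called 0 higher and 0 lower, and that fit without *F*-cKO replicate 2 of Ribo-seq, chosen after seeing the data, called 3 higher and 0 lower. With a library left out, 0 to 14 were higher and 0 to 2 lower, and the median was between −0.0065 (without *M*-cKO replicate 1) and 0.19. For TE in *M*-cKO, DESeq2 called 2 higher and 5 lower, protein-coding genes only gave 2 lower, the filter on each assay separately (added after seeing the data) 2 lower, and the single fit 0 lower. With a library left out, 0 to 1 were higher and 0 to 5 lower, 5 without Ribo-seq *M*-cKO replicate 1 and 3 without Ribo-seq *M*-cKO replicate 3. For none of the alternatives, in RNA, footprints or TE, is the share of all genes called given here. The counts under alternatives thus show how the calls varied, and not whether mitotic genes varied more than other genes. The median TE change between *M*-cKO and *F*-cKO, 0.02, ranged from −0.14 to 0.20. The median TE level in Ctrl, 1.68, was 1.52 with a pseudocount of 1 and 1.58 (without RNA-seq Ctrl replicate 3) to 1.73 with a library left out. The causes were not tested. Among the values of single genes under alternatives, 547 kept their side of the threshold, 113 no longer passed and 0 changed direction. These values are those of named genes called in the main fit, so calls gained are not counted. Losses were more frequent in footprints. In Ribo-seq *M*-cKO each such gene lost its call in 3 (*Nsl1*, *Cenpu*) to 9 (*Cenpp*) of 13 alternatives. In RNA-seq it was 0 to 5 (*Dsn1* in *M*-cKO) of 11. In RNA-seq *F*-cKO the calls lost with a library left out included *Aurkb*, *Birc5*, *Cenpu* and *Cenpk* (without Ctrl replicate 3), *Cenpu* (without Ctrl replicates 1 or 2 or *F*-cKO replicate 3), *Aurkb* (without *F*-cKO replicates 2 or 3) and *Cenpa* (without *F*-cKO replicate 2). In *M*-cKO they included *Cdk1* (without Ctrl replicate 3 or *M*-cKO replicate 3) and *Cdc20* (without *M*-cKO replicate 3).

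Within each assay, deviations of same-numbered libraries of different genotypes correlated between −0.13 and 0.15 in RNA-seq and between −0.26 and 0.16 in Ribo-seq. Replicate numbers thus gave no sign of a pairing between genotypes. Whether an RNA-seq and a Ribo-seq library with the same number are paired was not tested. With the replicate block, 28 genes were higher in RNA-seq *F*-cKO, 9 were higher and 1 lower in Ribo-seq *M*-cKO, and for TE in *M*-cKO 0 were lower. In the *F*-cKO footprints 0 mitotic genes were called under every alternative, also without replicate 2, the library with the fewest counts, and the effect of depth was not tested.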
